A study of Mus musculus with 6 samples.

Results

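Cell cycle and DNA replication genes were followed in the prefrontal cortex (PFC) of WT mice, P301S Tau mice and P301S Tau mice treated with UNC0642. The 10 genes Top2a, Uhrf1, Mki67, Mcm2, Mcm5, Mcm6, Rrm2, Cdk1, Ccna2 and Ccnb1 were chosen by name from the 54429 gene rows of each library, and all 10 had a row. The choice was partly made on these data: Top2a, Uhrf1 and Mki67 stand in the study's list of genes that were up in P301S Tau mice and came down after UNC0642, a list drawn from the same 6 libraries. Values of these 3 genes are therefore given as a description, with no test. The other 7 are not in that list and were tested. The 10 genes lie on 10 different chromosomes.

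The study asked whether inhibiting the histone methyltransferases EHMT1 and EHMT2 reverses changes in gene expression in a mouse model of tauopathy. UNC0642 is a small molecule inhibitor of both enzymes, which place the repressive mark H3K9me2. Total RNA of bulk PFC tissue, depleted of ribosomal RNA, was sequenced in 6 libraries from mice 6 months old, 2 biological replicates per group. The WT mice carried the genotype (C57BL/6 x C3H) and received vehicle (saline with DMSO). P301S Tau mice (PS19) on that background carry a transgene for human tau with the P301S mutation, driven by the mouse prion promoter, so it is expressed widely in neurons. They received either vehicle or UNC0642, injected intraperitoneally at 1 mg/kg once daily for 3 days, with tissue taken 24 h after the last injection.

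Cells that divide copy their DNA once per cycle. Origins of replication are loaded with the MCM helicase in G1 and fired in S phase, ribonucleotide reductase supplies the deoxynucleotides, and cyclins bound to cyclin-dependent kinases drive the cell through S phase and into mitosis. In the adult cortex most neurons have left the cell cycle for good, and the dividing cells are mainly oligodendrocyte progenitors with some glial and vascular cells, so transcripts of these genes are scarce in bulk tissue. Many of these genes are switched on by shared elements near their start sites. E2F sites are typical of genes of G1 and S phase, and CCAAT boxes paired with a cell cycle homology region (CHR) are typical of genes of G2 and mitosis.

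The start-site sequences show how far the chosen genes share those elements. RefSeq promoter windows of 300 bases, 250 before and 50 after a start site on GRCm38.p6, were found for 9 of the 10 genes, and Uhrf1 had 2 start sites. Ccna2 was not in the table. Both strands were searched for the CCAAT box (CCAAT), the CHR (TTTGAA or TTTAAA) and the E2F site (TTTGGCGC or TTTCGCGC). A CCAAT box was found for all 9 genes, against 37.4% of all 32851 promoter windows. A CHR was found for 8 of the 9, against 27.6% of all windows, and an E2F site for 4 (Uhrf1, Mcm5, Mcm6 and Cdk1), against 0.813%. These are matches of letters and do not show that a factor binds. The 250 bases before the start site are printed below for the 3 genes on the study's list, for Mcm6, which has the most E2F matches, and for Ccnb1, whose UNC0642 libraries lay above its Tau libraries. Each reads 5′ to 3′ on the strand of the gene, with the motif matches of either strand in capitals.
Top2a, chr11:99024190-99024439, minus strand: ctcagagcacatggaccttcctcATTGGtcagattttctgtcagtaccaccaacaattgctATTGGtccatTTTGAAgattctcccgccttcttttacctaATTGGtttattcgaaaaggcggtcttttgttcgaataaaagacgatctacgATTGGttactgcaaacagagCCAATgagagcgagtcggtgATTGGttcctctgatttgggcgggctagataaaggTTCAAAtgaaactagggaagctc
Mki67, chr7:135716380-135716629, minus strand: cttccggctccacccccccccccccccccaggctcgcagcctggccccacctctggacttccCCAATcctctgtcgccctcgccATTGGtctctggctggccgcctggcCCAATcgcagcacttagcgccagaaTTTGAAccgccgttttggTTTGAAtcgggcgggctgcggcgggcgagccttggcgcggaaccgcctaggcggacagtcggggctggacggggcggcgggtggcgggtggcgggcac
Uhrf1, downstream start site, chr17:56304063-56304312, plus strand: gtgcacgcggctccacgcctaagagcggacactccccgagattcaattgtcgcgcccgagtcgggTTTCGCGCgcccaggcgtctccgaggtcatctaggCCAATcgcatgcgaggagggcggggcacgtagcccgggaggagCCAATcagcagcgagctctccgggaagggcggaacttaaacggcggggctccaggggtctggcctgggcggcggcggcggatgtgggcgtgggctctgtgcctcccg
Mcm6, chr1:128359706-128359955, minus strand: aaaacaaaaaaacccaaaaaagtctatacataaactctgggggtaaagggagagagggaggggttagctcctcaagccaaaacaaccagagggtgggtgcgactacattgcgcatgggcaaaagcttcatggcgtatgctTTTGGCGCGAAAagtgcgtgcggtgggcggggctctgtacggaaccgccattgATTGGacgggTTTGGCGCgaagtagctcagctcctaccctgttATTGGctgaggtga
Ccnb1, chr13:100786487-100786736, minus strand: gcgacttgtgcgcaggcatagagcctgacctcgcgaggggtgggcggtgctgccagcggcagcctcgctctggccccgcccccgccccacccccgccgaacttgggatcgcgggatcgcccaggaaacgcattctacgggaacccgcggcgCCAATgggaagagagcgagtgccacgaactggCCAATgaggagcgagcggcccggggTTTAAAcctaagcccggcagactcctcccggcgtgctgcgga
Top2a held 6 CCAAT boxes, the most of the 9 genes, and 2 CHR matches. Mki67 held 3 CCAAT boxes and 2 CHR matches, from -188 to -98 relative to the start. The downstream start site of Uhrf1 had 2 CCAAT boxes, an E2F match at -185 and a CHR match at 5, past the printed bases. The other start site of Uhrf1, at the outer edge of the gene, had CCAAT boxes alone. Mcm6 held 3 E2F matches, of which a pair overlapped on opposite strands at -110 and -106, and no CHR. Ccnb1 held 2 CCAAT boxes and a CHR at -42. Genes with and without an E2F match were found both among the 3 on the study's list and among the other 6.

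**Figure D1:**
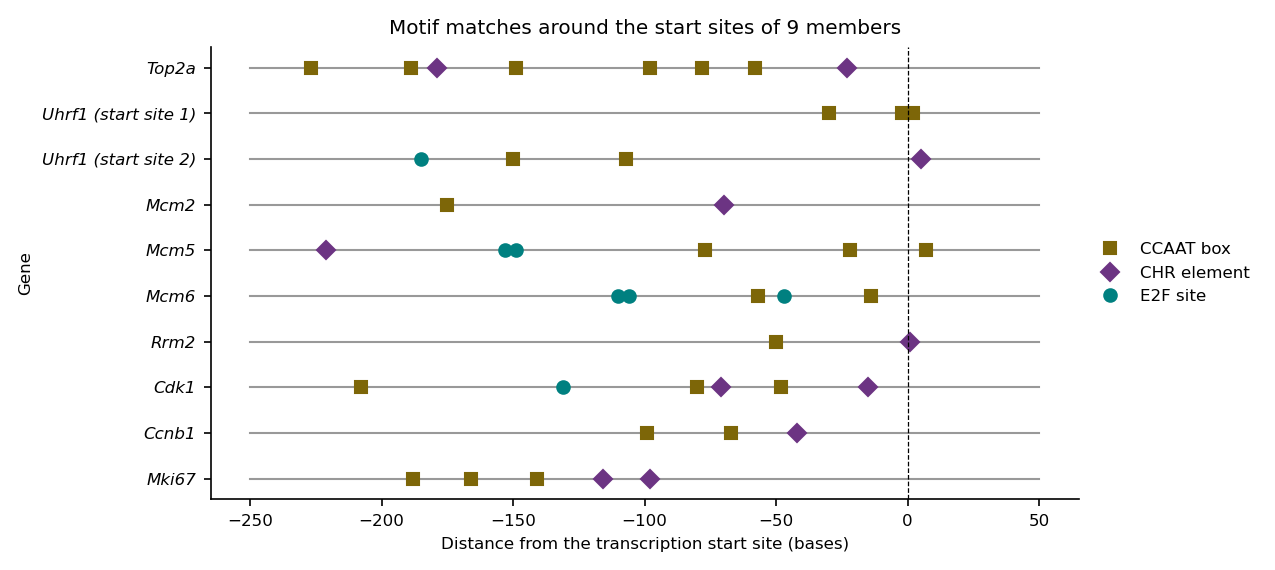
Positions of motif matches around the start sites of 9 genes, as the distance from the start site in bases (x axis) for each gene (y axis), with 2 start sites for Uhrf1. Squares mark CCAAT boxes, diamonds CHR matches and circles E2F matches on either strand. Every gene has at least 1 CCAAT box, and E2F matches occur in 4 genes.

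The libraries held 17005664 to 28972176 counts, so 3 counts, taken as the floor, corresponded to 0.107 to 0.178 CPM (counts scaled to library size, here by the TMM method). Counts of 1 to 10 were even numbers in 65.2% to 68.3% of genes, so low counts were not independent single fragments and counting error is larger than the counts imply. The reason was not tested. Xist had 8107, 5340 and 4104 counts in WT replicate 2 and the Tau replicates and 2 to 5 in the other libraries, and the Y-linked Ddx3y had 1705 to 2411 counts in WT replicate 1 and the UNC0642 replicates and 2 to 18 in the others. The Tau libraries were therefore of female pattern and the UNC0642 libraries of male pattern, and the effect of UNC0642 cannot be told apart from that difference. WT replicate 1 was of male and WT replicate 2 of female pattern, so both comparisons with WT are unbalanced in it too. The library labelled WT replicate 1 had Prnp at 1652 CPM, within the 1470 to 1694 CPM of the libraries labelled Tau, while WT replicate 2 had 873 CPM. Mapt was at 576 CPM in WT replicate 1, within the 570.5 to 614 CPM of the libraries labelled Tau, and at 449 CPM in WT replicate 2. The genotype of WT replicate 1 was not tested further. For the cell cycle genes named below, the calls lost or gained without it are given beside them. The cortical neuron markers Rbfox3 (108 to 151 CPM) and Snap25 (2671 to 3266 CPM) were high throughout. Ehmt1 and Ehmt2, the targets of the inhibitor, were at 43.6 to 49.0 and 131 to 161 CPM.

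All 10 genes passed the filter on low counts, which kept 20409 genes, but Uhrf1 passed only through the Tau libraries, and Cdk1 passed through 1 WT and 1 Tau library. Per kilobase of exon, the mean level over the 6 libraries was highest for Mcm6 (1.88 CPM per kb, range 1.35 to 2.18), followed by Ccnb1 (1.21) and Mcm5 (1.19). Mcm2 (0.629) came next, and its range did not overlap that of Mcm5. The remaining genes were at 0.414 (Rrm2), 0.381 (Ccna2), 0.344 (Mki67), 0.195 (Top2a), 0.150 (Uhrf1) and 0.0661 CPM per kb (Cdk1), and each overlapped its neighbour in that order over the libraries.

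Top2a, Uhrf1 and Mki67 stood higher in P301S Tau mice than in the other groups. Top2a (chr11:98992943-99024189, minus strand, GRCm38 as are all gene positions given here) encodes DNA topoisomerase II alpha, which untangles sister DNA in S phase and mitosis. It was at 0.788 and 1.48 CPM in WT, 2.29 and 3.89 CPM in Tau and 1.07 and 1.02 CPM in UNC0642-treated Tau mice, on 18 to 68 counts a library. Both Tau libraries were above all 4 others, and Tau replicate 2 was the highest. The group means were 1.14 ± 0.492, 3.09 ± 1.14 and 1.04 ± 0.036 CPM (SD, n = 2). The log2 difference was 1.42 (SE 0.415) for Tau against WT, -1.55 (SE 0.430) for UNC0642-treated against untreated Tau and -0.13 (SE 0.451) for UNC0642-treated Tau against WT.

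Uhrf1 (chr17:56303321-56323486, plus strand) encodes a protein that reads hemimethylated DNA and H3K9 methylation at the replication fork and brings in the maintenance methyltransferase DNMT1. Its levels were 0.355 and 0.312 CPM in WT, 1.22 and 1.37 CPM in Tau and 0.237 and 0.353 CPM after UNC0642. The counts behind them were 9 and 8 in WT, 34 and 24 in Tau and 4 and 8 after UNC0642, the lowest of the 3 genes. The Tau libraries did not overlap the others, and WT and UNC0642 libraries overlapped each other. Its log2 difference was 1.93 (SE 0.518) for Tau against WT, -2.08 (SE 0.545) after UNC0642 and -0.15 (SE 0.606) for UNC0642-treated Tau against WT. A near copy, Gm5648 (98.3% identical over 1590 bases), had 0 to 8 counts a library, with 8 in Tau replicate 2, so some reads of Uhrf1 could have been shared with it.

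Mki67 (chr7:135689784-135716361, minus strand) encodes Ki-67, the coat protein of mitotic chromosomes that is used to mark dividing cells. It was at 2.68 and 2.73 CPM in WT, 4.54 and 5.10 CPM in Tau and 2.61 and 3.13 CPM after UNC0642, on 44 to 127 counts. The replicates of each group lay close together, with group means of 2.71 ± 0.038, 4.82 ± 0.392 and 2.87 ± 0.372 CPM (SD, n = 2). Its log2 difference was 0.83 (SE 0.249), -0.74 (SE 0.252) and 0.09 (SE 0.257) in the 3 comparisons, in the same order. When each library was left out in turn, the difference between Tau and WT ranged from 1.01 to 1.94 for Top2a, from 1.84 to 2.02 for Uhrf1 and from 0.74 to 0.91 for Mki67. The difference after UNC0642 ranged from -1.90 to -1.14, from -2.42 to -1.86 and from -0.88 to -0.62.

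**Figure D2:**
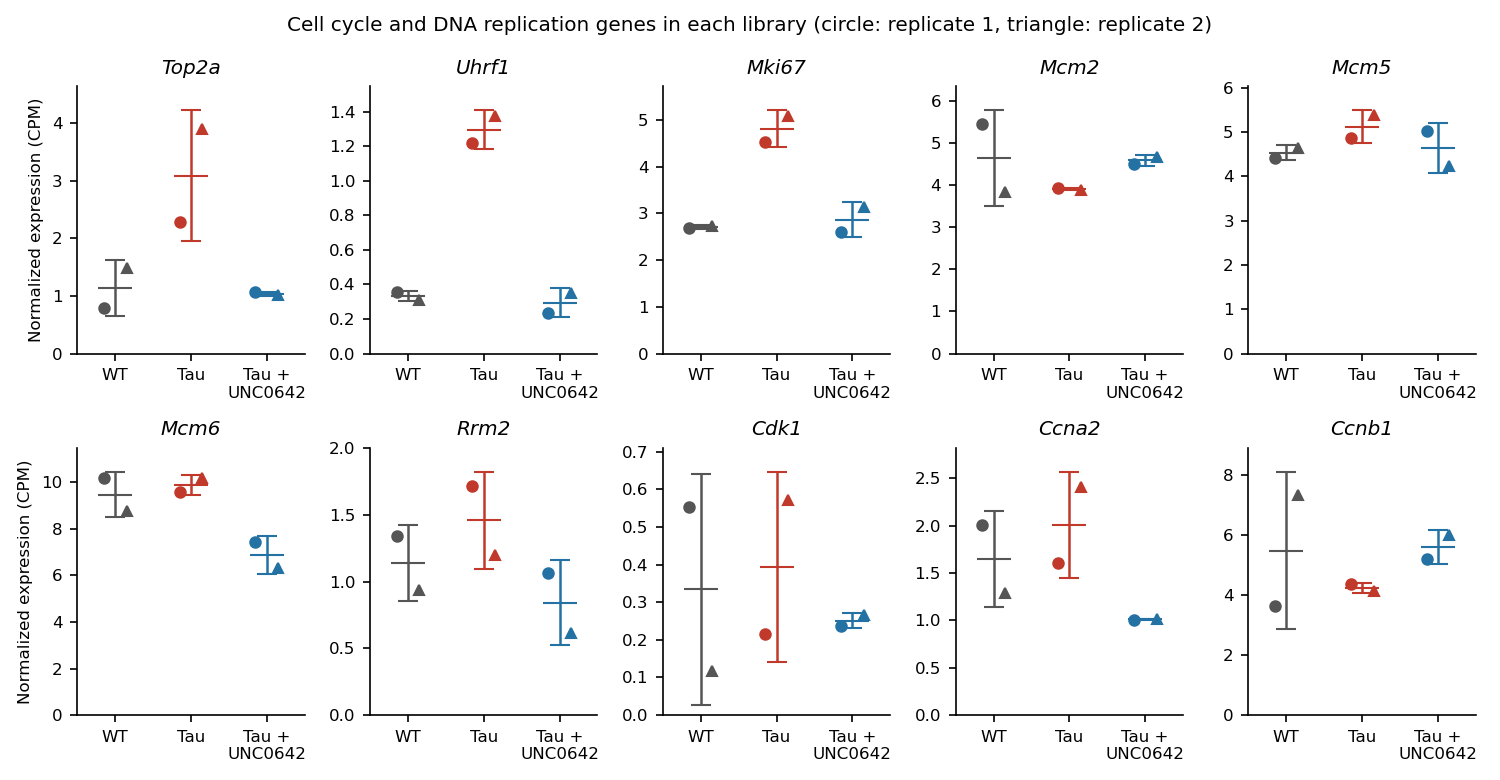
Normalized expression in CPM (y axis, from 0, a scale per gene) of the 10 genes in WT, Tau and UNC0642-treated Tau mice (x axis). Circles and triangles are replicates 1 and 2, and bars the mean ± SD of 2 libraries. Top2a, Uhrf1 and Mki67 are highest in both Tau libraries, Mcm6 and Ccna2 are lowest in both UNC0642 libraries, and the WT libraries of Ccnb1 and Mcm2 span the other groups.

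The 7 genes outside the study's list had smaller differences between Tau and WT mice than those 3 genes. The list required such a difference in these libraries, so this contrast follows in part from that choice and is no test. None of the 7 was called different between Tau and WT by the threshold of the study, which asks for a difference of 1.2-fold or more and p under 0.05 before adjustment, here in edgeR's quasi-likelihood test, and none reached p under 0.05 without the fold limit or in the DESeq2 Wald test. Of all genes tested, 3.72% were called higher and 6.10% lower. The log2 differences of the 7 ranged from -0.37 to 0.37 with a median of 0.16, against a median of -0.0001 over all genes tested, and the smallest adjusted p was 0.656. After UNC0642, 2 of the 7 fell (Mcm6 and Ccna2) and none rose, where 3.95% of all genes were called lower and 3.73% higher. The median was -0.52 against -0.0023 over all genes. Between UNC0642-treated Tau and WT mice Mcm6 alone was called, and was lower, where 5.69% of all genes were called lower and 3.77% higher. Neither gene passed adjustment over all genes.

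Of the 3 genes for subunits of the MCM helicase, which opens DNA ahead of the replication fork, Mcm6 alone was called. Mcm6 (chr1:128331590-128359664, minus strand) was at 10.2 and 8.79 CPM in WT, 9.58 and 10.2 CPM in Tau and 7.46 and 6.31 CPM after UNC0642, on 126 to 268 counts. Both UNC0642 libraries were below the 4 others. It fell by 0.52 on the log2 scale (SE 0.174) from untreated to UNC0642-treated Tau mice (adjusted p = 0.454 in edgeR's quasi-likelihood fit across all genes), and was lower than in WT by a log2 difference of -0.47 (SE 0.173, edgeR adjusted p = 0.322). The first call was lost without Tau replicate 2 (-0.48) and without UNC0642 replicate 2 (-0.40). The second was lost without WT replicate 1 (-0.36), without UNC0642 replicate 2 (-0.35) and in the DESeq2 Wald test.

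Mcm2 (chr6:88883474-88898780, minus strand) was at 5.44 and 3.83 CPM in WT, 3.93 and 3.89 CPM in Tau and 4.50 and 4.68 CPM after UNC0642. WT replicate 1 was the highest, and the WT libraries spanned both other groups. Its log2 difference was -0.24 for Tau against WT and 0.23 after UNC0642 (edgeR adjusted p = 0.717 and 0.835). Mcm5 (chr8:75109569-75128439, plus strand) was at 4.42 and 4.65 CPM in WT, 4.86 and 5.38 CPM in Tau and 5.03 and 4.24 CPM after UNC0642. The Tau libraries lay above the WT libraries, but the log2 difference of 0.17 (SE 0.216) was smaller than its error. After UNC0642 it was -0.15 (SE 0.219).

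Rrm2 (chr12:24708241-24714146, plus strand) encodes the small subunit of ribonucleotide reductase, made in S phase. It was at 1.34 and 0.937 CPM in WT, 1.72 and 1.2 CPM in Tau and 1.07 and 0.618 CPM after UNC0642, on 14 to 48 counts. Both UNC0642 libraries lay below both Tau libraries, by a log2 difference of -0.83 (SE 0.457, edgeR adjusted p = 0.633), which did not pass the threshold. The Tau and WT libraries overlapped, with a log2 difference of 0.37 (SE 0.431).

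Of the cyclins and their kinase, Ccna2 fell after UNC0642, while Ccnb1 and Cdk1 passed no test. Ccna2 (chr3:36564865-36572150, minus strand) encodes cyclin A2, which acts in S phase and at entry into mitosis. It was at 2.01 and 1.29 CPM in WT, 1.61 and 2.41 CPM in Tau and 1.01 and 1.02 CPM after UNC0642, on 17 to 51 counts. Both UNC0642 libraries were below the 4 others, and the WT and Tau libraries overlapped. It fell by 0.97 on the log2 scale (SE 0.405) after UNC0642 (edgeR adjusted p = 0.538). The call was lost without Tau replicate 2 (-0.67), without UNC0642 replicate 1 (-0.96), without UNC0642 replicate 2 (-0.97), with the replicate number as a block (-0.97, SE 0.433) and in the DESeq2 Wald test (-0.97, SE 0.553). Of its exon bases, 510 (12.5%) are shared with Exosc9 on the opposite strand, which had 370 to 687 counts. Whether strand was used in counting is not given in the sources used here, so its level is uncertain.

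Ccnb1 (chr13:100778650-100786570, minus strand) encodes cyclin B1, the partner of CDK1 at entry into mitosis. It was at 3.63 and 7.34 CPM in WT, 4.36 and 4.12 CPM in Tau and 5.21 and 6.00 CPM after UNC0642. WT replicate 2 was the highest of all and WT replicate 1 the lowest, and the UNC0642 libraries lay above the Tau libraries. The log2 difference was -0.37 (SE 0.306) for Tau against WT and 0.40 (SE 0.310) after UNC0642 (edgeR adjusted p = 0.656 and 0.745). Without WT replicate 1 the first was -0.79 and past the threshold, and without WT replicate 2 the level after UNC0642 was above WT by 0.63 and past it, against 0.03 with both. Its processed copies Ccnb1-ps, Gm12856, Gm8416 and Gm4870, 94.4% to 99.2% identical over more than 1200 bases, had 0 to 2 counts each.

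Cdk1 (chr10:69335146-69352938, minus strand), the mitotic kinase itself, had 3 to 14 counts a library, or 0.117 to 0.572 CPM. It was at 0.552 and 0.117 CPM in WT, 0.214 and 0.572 CPM in Tau and 0.237 and 0.265 CPM after UNC0642. All 3 groups overlapped, and the log2 difference of 0.16 between Tau and WT had an SE of 0.836. A difference in Cdk1 was not detectable at this depth.

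**Figure D3:**
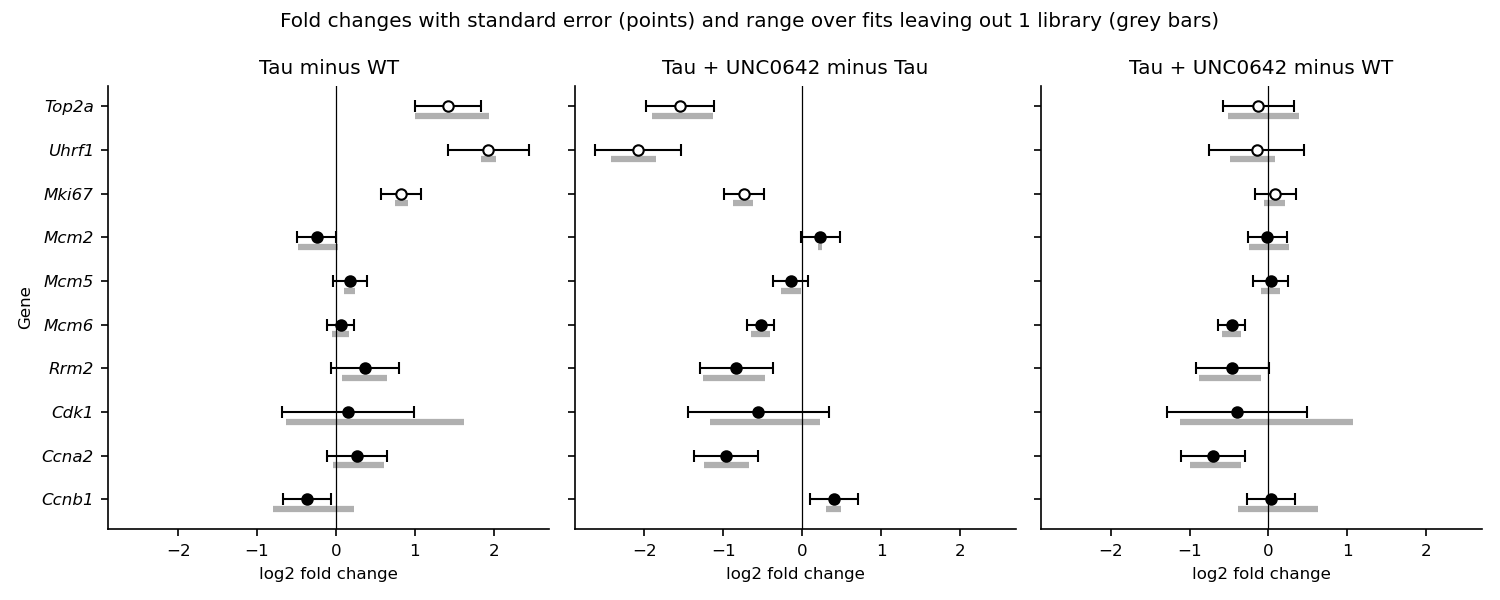
Log2 differences (x axis) of the 10 genes (y axis) for Tau against WT, UNC0642-treated against untreated Tau and UNC0642-treated Tau against WT. Points with bars are the edgeR estimate ± SE, open for the 3 genes on the study's list, and grey bars span the estimates with 1 library left out. Top2a, Uhrf1 and Mki67 lie to the right of 0 in the first panel and to the left in the second, Cdk1 has the widest spread, and 7 genes lie within 0.37 of 0 in the first panel.

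The remaining genes of the pathway were described from a list of 130 in 7 roles, of which 122 passed the filter. Of these, 2 (Chaf1b and E2f7) passed only through the Tau libraries, so their part in the medians follows from the filter. Neither was called. Between Tau and WT, 7 rose and none fell, by edgeR's quasi-likelihood test. The count of lower genes was also 0 without the fold limit and in the DESeq2 Wald test. The 7 are 5.74% of the 122, against the 3.72% of all genes called higher, and 4 of them (Gins2, Cenpf, Ckap2 and Anln) are in the study's lists, which were drawn from these libraries. Without the 5 genes of those lists, 3 of 117 rose (2.56%). Listed genes were not taken out of the share of all genes, so that share and the 2.56% are not like for like. The median log2 difference was 0.08, against -0.0001 over all genes. After UNC0642, 6 fell (4.92%, against 3.95% of all genes) and 2 rose (1.64%, against 3.73%), with a median of -0.08. Without the listed genes 3 fell and 2 rose.

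Genes of the kinetochore, the spindle and chromosome condensation made up 4 of the 7 that rose in Tau mice and 5 of the 6 that fell after UNC0642. These are 12.9% and 16.1% of the 31 tested, against 3.72% and 3.95% of all genes, with medians of 0.15 and -0.35. Of them, 3 of the 4 (Anln, Cenpf and Ckap2) and 2 of the 5 (Cenpf and Ckap2) are on the study's list, which was drawn from these libraries. Without the 4 listed genes of this role, 1 of 27 rose (3.70%, Bub1b) and 3 fell (11.1%). The shares of all genes again keep their listed genes, so they are not like for like with these. Cenpf, a kinetochore protein on the study's list, was at 1.18 and 1.41 CPM in WT, 3.15 and 2.06 CPM in Tau and 1.07 and 1.5 CPM after UNC0642. Its log2 difference was 1.02 for Tau against WT and -1.02 after UNC0642 (edgeR adjusted p = 0.324 and 0.480). The first call was lost without WT replicate 1 (0.90), the second without UNC0642 replicate 1 (-0.81), and both without Tau replicate 1 (0.67 and -0.67). Ckap2, a spindle protein on the same list, was at 0.552 and 0.547 CPM in WT, 0.858 and 2.29 CPM in Tau and 0.237 and 0.441 CPM after UNC0642. It lost both calls without Tau replicate 2, the library that was far above the rest, where the differences were 0.64 and -1.29, and the first also without either WT library (1.47 and 1.46). Ect2, an exchange factor needed for cytokinesis and not on the list, was at 1.06 and 0.937 CPM in WT, 0.715 and 1.15 CPM in Tau and 0.237 and 0.353 CPM after UNC0642. It did not differ past the threshold between Tau and WT (-0.13) and fell by 1.59 on the log2 scale after UNC0642 (edgeR adjusted p = 0.476), on 4 to 27 counts a library. The call was lost without Tau replicate 2 (-1.24) and without UNC0642 replicate 1 (-1.36).

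The other called genes of this role, named after their values were seen, were Bub1b, Anln, Cdca8 and Hmmr. Bub1b, a spindle checkpoint kinase, was at 0.079 and 0.234 CPM in WT and 0.572 CPM in both Tau libraries, on 2 to 16 counts, and lost its call without WT replicate 1 (1.27) and without either Tau library (1.83 each). Anln, which encodes the cytokinesis scaffold anillin and is also abundant in myelin, was at 74.5 CPM in Tau replicate 2 and at 14.8 to 29.8 CPM in the 5 other libraries. Its difference between Tau and WT was 1.12, and it was lost without WT replicate 2 (0.69) and without Tau replicate 2 (0.08). After UNC0642 it was -0.77, not called, and was called without Tau replicate 1 (-1.39). Cdca8, a subunit of the chromosomal passenger complex, was at 1.47 and 1.49 CPM in Tau and 0.474 and 0.618 CPM after UNC0642 (log2 difference -1.41). Its call was lost without any 1 of these 4 libraries (-1.63 to -1.25). Without WT replicate 1 it was also called lower after UNC0642 than in WT (-1.26), and without WT replicate 2 higher in Tau than in WT (1.63). Hmmr, a spindle assembly factor, fell by 0.96 on the same scale, and kept its call only without UNC0642 replicate 1.

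Among 20 origin licensing and firing genes, Gins2 was the one called. It encodes a subunit of the GINS complex that activates the MCM helicase, and is on the study's list. It was at 0.552 and 0.234 CPM in WT, 0.894 and 1.55 CPM in Tau and 0.651 and 0.221 CPM after UNC0642, on 5 to 27 counts. Its log2 difference was 1.60 and then -1.51 (edgeR adjusted p = 0.371 and 0.560), and both calls were lost without Tau replicate 2 (1.18 and -1.08). The first was also lost without WT replicate 2 (1.11) and the second without UNC0642 replicate 2 (-0.87). The 27 genes of the replication fork and the 7 of nucleotide supply were not among those called, and their medians lay between -0.06 and 0.09 in both comparisons.

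Ccnd2, which encodes cyclin D2, a partner of the kinases CDK4 and CDK6 in G1, had the smallest p of the called genes. It was at 67.1 and 79.7 CPM in WT, 121 and 110 CPM in Tau and 113 and 105 CPM after UNC0642, on 1701 to 3391 counts. It rose by a log2 difference of 0.65 (SE 0.101) between WT and Tau, with an adjusted p of 0.0468 in edgeR's fit of all genes tested, the only gene of the list under 0.05. Both treated libraries stayed above both WT libraries, by 0.57 (edgeR adjusted p = 0.0686), and the difference after UNC0642 was -0.09 (SE 0.101). With 1 library left out the first difference ranged from 0.53 to 0.78, and its adjusted p was over 0.05 without WT replicate 1 (0.167), Tau replicate 1 (0.149) or Tau replicate 2 (0.118). E2f6, a repressor of the E2F family, rose in Tau mice by 0.33 (edgeR adjusted p = 0.316), from 22.9 CPM in both WT libraries to 29.9 and 27.7 CPM, and was at 27.7 and 32.5 CPM after UNC0642. The call was lost without Tau replicate 1 (0.27).

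After UNC0642, Ccnf and Cdkn1a rose. Cdkn1a encodes p21, an inhibitor of cyclin-dependent kinases that responds to p53. It was at 9.26 and 5.16 CPM in WT, 10.1 and 8.30 CPM in Tau and 14.9 and 14.0 CPM after UNC0642, so that both treated libraries were above the 4 others. Its log2 difference was 0.64 after UNC0642 (edgeR adjusted p = 0.484) and 1.00 against WT (edgeR adjusted p = 0.154). The first call was lost without Tau replicate 2 (0.52) and without either treated library (0.60 and 0.69). Between Tau and WT it was 0.35, not called, and was called without WT replicate 1 (0.84). Ccnf, which encodes cyclin F, a ubiquitin ligase subunit that limits nucleotide supply and centrosome copying, was at 4.73 and 5.31 CPM in WT, 5.83 and 5.73 CPM in Tau and 8.94 and 7.15 CPM after UNC0642. Its log2 difference after UNC0642 was 0.47 (edgeR adjusted p = 0.538), and the call was lost without UNC0642 replicate 1 (0.31), without Tau replicate 1 (0.49) and without Tau replicate 2 (0.46). Against WT, 5 genes were called higher in UNC0642-treated Tau mice (Ccnd2, Ccnf, Cdkn1a, E2f3 and E2f6, 4.10% of 122) and 2 lower (Cdc25b and Ect2, 1.64%). E2f3 and Cdc25b were named after their values were seen, and E2f3 was called higher in Tau than in WT without WT replicate 1 (0.29) or Tau replicate 2 (0.33). Of these 7 calls, those of Ccnf, Ect2, E2f3 and Cdc25b were lost without UNC0642 replicate 1 (0.51, -1.49, 0.29 and -0.42), that of E2f6 without UNC0642 replicate 2 (0.27) and that of Cdc25b also without WT replicate 2 (-0.44).

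**Figure D4:**
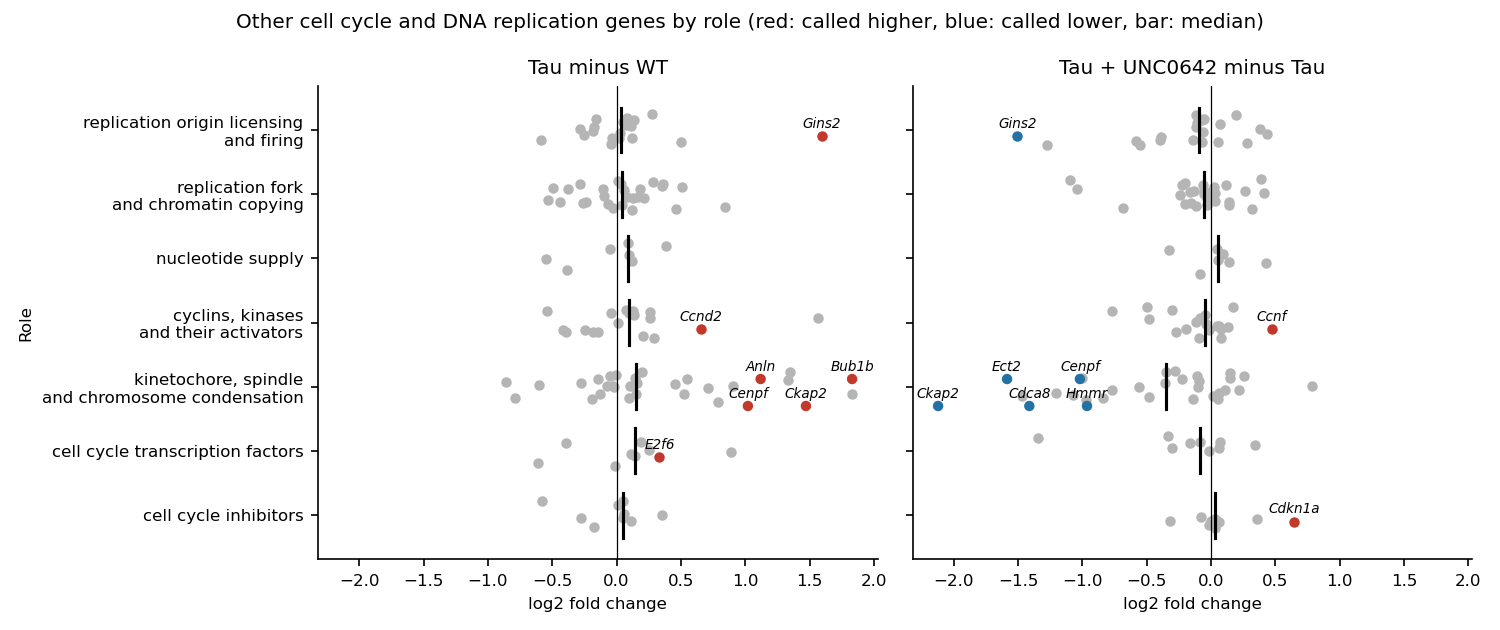
Log2 differences (x axis) of 122 other cell cycle and DNA replication genes by role (y axis), for Tau against WT and UNC0642-treated against untreated Tau. Grey points are genes not called, red and blue points those called higher and lower, and vertical bars the median of a role. The called genes lie mostly in the kinetochore and spindle role, whose median is 0.15 in the first panel and -0.35 in the second.

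In bulk tissue, fewer cells of a type and less RNA per cell cannot be told apart, so markers of the cell types that could carry these transcripts were set beside them. Oligodendrocyte progenitors are the main dividing cells of the adult cortex. The list of their markers includes genes that later cells of the lineage also express. These markers summed to 192 and 175 CPM in WT, 205 and 224 CPM in Tau and 163 and 170 CPM after UNC0642. Their median log2 difference was 0.24 between Tau and WT and -0.34 after UNC0642. In the first, 1 of 10 was called higher (Gpr17) and 1 lower (Bmp4). In the second, 4 were lower (Olig1, Sox10, Gpr17 and Neu4), and these genes were named after their values were seen. For comparison with all marker lists, 3.72% of all genes tested were called higher and 6.10% lower in Tau than in WT. After UNC0642, 3.73% were called higher and 3.95% lower. With each library left out, 1 to 4 were higher in Tau (4 without WT replicate 1 or Tau replicate 1) and 2 to 5 lower after UNC0642. Sox10 was called higher in Tau without WT replicate 1 (1.08) or Tau replicate 1 (0.91), and lower after UNC0642 than in WT without WT replicate 2 (-0.96), and Gpr17 was called higher after UNC0642 than in WT without UNC0642 replicate 1 (0.36). The defining marker Pdgfra was at 66.2 and 73.4 CPM in WT, 79.7 and 80.4 CPM in Tau and 67.0 and 67.9 CPM after UNC0642. Its log2 differences of 0.20 and -0.25 passed the unadjusted p (edgeR adjusted p = 0.392 and 0.467) but not the fold limit, which the first passed without WT replicate 2 (0.27). The defining marker Cspg4 was at 9.35 to 15.7 CPM and was not called in either. Of these 10 markers, 2 (Sox10 and Bmp4) are in the study's lists, so their calls follow in part from that choice. Microglial markers summed to 329 and 362 CPM in WT, 394 and 402 CPM in Tau and 359 and 348 CPM after UNC0642, with 2 of 10 higher in Tau (Tmem119 and C1qa, both in the study's lists) and 2 lower after UNC0642 (P2ry12 and Fcrls), these named after their values were seen. With each library left out, 2 to 4 were higher in Tau (4 without WT replicate 2) and 0 or 1 lower after UNC0642. Their defining markers Cx3cr1 and P2ry12 were at 38.5 to 49.3 and 35.3 to 49.3 CPM. The summed CPM of both marker groups was highest in the 2 Tau libraries, as were Top2a, Uhrf1 and Mki67. By mean log2 CPM, in which each marker counts alike, the microglial list was still highest there (4.90 and 4.93, against 4.69 to 4.75), but the progenitor list was at 3.55 and 3.75 in Tau and at 3.70 in WT replicate 1. The part of these cells in the difference was not tested.

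Tau replicate 2, the library with the highest Top2a, Uhrf1 and Mki67, stood apart in other markers. Mature oligodendrocyte markers summed to 5517 CPM there and to 1458 to 2956 CPM in the other libraries (Mog 61.9 against 14.7 to 32.4 CPM, Mobp 1038 against 212 to 439 CPM). Striatal projection neuron markers summed to 253 CPM there and to 97.7 to 123 CPM elsewhere (Drd1 36.9 against 15.9 to 22.9 CPM, Drd2 5.10 against 0.947 to 1.5 CPM). Of the oligodendrocyte markers, 3 of 8 were called higher in Tau and 2 lower after UNC0642 (medians 0.78 and -0.73). Without Tau replicate 2 none was called in either (-0.14 and 0.12), and without WT replicate 1 or Tau replicate 1 all 8 were higher in Tau. Without WT replicate 2 none was higher in Tau, and without either UNC0642 library none was lower after UNC0642. Of the striatal markers, 8 of 8 were called higher in Tau and 7 lower after UNC0642 (medians 0.87 and -0.92), and Tau replicate 1 also had a higher sum (122.5 CPM) than the WT and UNC0642 libraries (97.7 to 112 CPM). Without Tau replicate 2, 1 was higher in Tau and 1 lower after UNC0642 (medians 0.18 and -0.22), and without WT replicate 1 or 2, 5 and 3 were higher in Tau. Without either UNC0642 library 4 were lower after UNC0642. Of these lists, 6 of 8 and 7 of 8 genes are in the study's lists. Without Tau replicate 2 the log2 differences of Top2a, Uhrf1 and Mki67 between Tau and WT were 1.01, 1.85 and 0.74. Markers of the other cell types did not have their highest sum in both Tau libraries. Neuroblast and progenitor markers of the subventricular zone, another dividing population, summed to 461 to 529 CPM. Tubb3 made up 318 to 380 CPM of that. By edgeR's test 3 of 14 were lower and none higher in Tau than in WT (median -0.38). Among them was Dcx (53.5 and 43.4 CPM in WT, 26.7 and 22.2 CPM in Tau, edgeR adjusted p = 0.0363), and Sox11 was at 16.3 to 22.6 CPM. By mean log2 CPM the list was at 3.43 in WT replicate 1 and at 2.36 to 2.75 elsewhere. Between UNC0642-treated Tau and WT, 8 of 14 were lower (median -0.71), where 5.69% of all genes were called lower. Without WT replicate 1 the medians of these 2 comparisons were 0.036 and -0.20. Endothelial markers summed to 145 to 210 CPM, with 5 of 8 lower in Tau than in WT (Cldn5 10.3 to 26.1 CPM and Pecam1 11.3 to 18.1 CPM over all libraries). Meningeal fibroblast markers summed to 40.3 to 74.4 CPM (Col1a1 3.26 to 7.15 CPM, Col1a2 11.2 to 24.3 CPM), astrocyte markers to 4772 to 5447 CPM (Aqp4 122 to 143 CPM, Gfap 49.4 to 112 CPM) and cortical neuron markers to 6773 to 7493 CPM. Ependymal markers summed to 2.03 to 5.61 CPM, and 3 of the 6 passed the filter. Foxj1 was at 0.547 to 2.18 CPM, and Ccdc153 was at 0 in 4 libraries and had 8 counts in Tau replicate 2. By mean log2 CPM the ependymal list was highest in the Tau libraries (0.14 and 0.43, against -0.76 to 0.011), with no marker called.

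**Figure D5:**
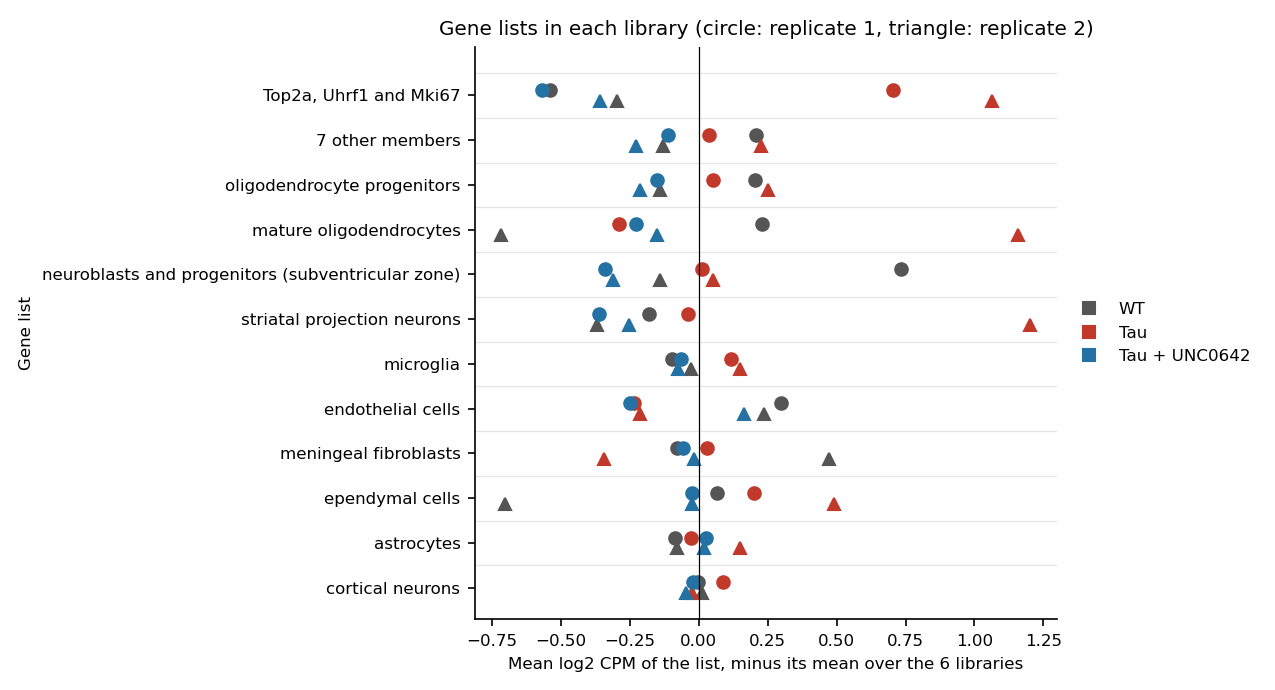
Mean log2 CPM of each gene list in each library, minus the mean of that list over the 6 libraries (x axis), for the chosen genes and 10 lists of cell type markers (y axis). Circles and triangles are replicates 1 and 2, grey for WT, red for Tau and blue for UNC0642-treated Tau. Both Tau libraries are far to the right for Top2a, Uhrf1 and Mki67. They also lie to the right of the other libraries for the microglial, ependymal and striatal lists. For the progenitor list WT replicate 1 lies between them, and Tau replicate 2 lies farthest right for mature oligodendrocytes and striatal neurons.

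The genes whose levels over the 6 libraries were most like the mean of the 10, each gene first standardized on log2 CPM, were not cell cycle genes. They were Tulp4 (Pearson's r = 0.994), Pard3 (0.993), Cntn2 (0.987), Adssl1 (0.986) and Dbt (0.984). They were chosen as the highest among all genes tested, so r is a description over 6 libraries. Genes measured in the same library share its depth and tissue composition. The mean of the 10 was highest in Tau replicate 2 and next in Tau replicate 1, and lowest in UNC0642 replicate 2. Tulp4 was at 490 and 475 CPM in WT, 514 and 535 CPM in Tau and 474 and 458 CPM after UNC0642, a narrow range beside that of Top2a. Cntn2, an adhesion molecule of axons and myelin, is itself on the study's list of genes up in Tau mice and reversed by UNC0642. It was at 107 and 97.3 CPM in WT, 113 and 133 CPM in Tau and 89.8 and 88.7 CPM after UNC0642.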

How the data were processed

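Reads were trimmed with Cutadapt and aligned with TopHat2, as the methods state to mouse RefSeq mRNAs, and the submitters' processing notes name the build mm10, SAMtools, featureCounts and edgeR. The authors deposited raw counts per gene for each library, and the setting for strand and for reads with several matches is not given in the sources used here. Rows of 26 genes whose names read as dates in 2 of the libraries were joined by position.

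Counts were analysed with edgeR 4.0.16 in R 4.3.3. filterByExpr (minimum count 10, minimum total 15) kept 20409 genes, TMM scaled the library sizes, and the quasi-likelihood fit took all 6 libraries with 1 mean for each group (3 residual degrees of freedom, biological coefficient of variation 12.3%). Benjamini-Hochberg adjustment of p-values covered all genes tested, SEs come from the model, and SDs from 2 libraries. Log2 CPM used a prior count of 2. Replicates differed beyond sampling noise, and libraries that share a number are of separate mice and were not paired. Positions and exon lengths are from GENCODE M21 (GRCm38), promoters from RefSeq (GRCm38.p6), and copies were found with blastn 2.17.0. Tables and figures were made with Python 3.11.15.

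The genes, the 130 pathway genes in 7 roles and the marker lists were chosen with earlier results of these data known. Named are the 10 genes, up to 3 called pathway genes of each role by smallest p, the 5 genes most like the 10, the first 2 markers of each cell type (for ependymal cells, Foxj1 and Ccdc153), and checks of the labels. Alternatives were DESeq2 size factors or library size, dropping the filter or asking for 10 counts in each library, a replicate block, fits of the 2 groups alone, the DESeq2 1.42.0 Wald test, other thresholds, the list without the study's genes, and each library left out.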

Additional observations from a re-analysis of the deposited data

How the results depend on the processing

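Of the counts of pathway genes, those called higher between Tau and WT were 7, and 12 with no filter, 4 with at least 10 counts in every library, 1 at an adjusted p under 0.05 and 3 without the study's genes; leaving out each library gave 4 to 9 (4 without Tau replicate 2). Those called lower were 0, and 0 to 2 with each library left out (2 without Tau replicate 2, 1 without either WT library). After UNC0642, 2 were called higher, and 1 with the replicate block, 1 in the DESeq2 Wald test, 1 at a fold change of at least 1.5 and 0 at adjusted p; leaving out each library gave 0 to 3 (0 without UNC0642 replicate 1, 1 without Tau replicate 2 or UNC0642 replicate 2). Of the 6 called lower, 2 were left with at least 10 counts in every library, 0 at adjusted p and 3 without the study's genes, and 1 to 6 with each library left out (1 without Tau replicate 2). Between UNC0642-treated Tau and WT, 5 were higher and 2 lower, which became 2 and 1 at a fold change of at least 1.5, 0 and 0 at adjusted p, and 1 lower with at least 10 counts. Leaving out each library gave 3 to 9 higher (3 without UNC0642 replicate 1, 9 without WT replicate 1) and 2 to 6 lower (6 without WT replicate 2, 4 without UNC0642 replicate 2).

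Among the 7 genes tested singly, small differences changed sign. With library size in place of TMM, Mcm6 between Tau and WT was -0.011, Mcm5 between UNC0642-treated Tau and WT -0.011 and Ccnb1 there -0.00029. With the replicate block, Mcm2 there was 0.0018, and the block changed no call of these genes other than that of Ccna2. Same-numbered libraries did not deviate together (r of -0.034, -0.021 and -0.0033), and with 2 libraries a group the numbers give no pairing. With each library left out, the difference between Tau and WT ranged from -0.48 to 0.029 for Mcm2, -0.046 to 0.16 for Mcm6, -0.63 to 1.63 for Cdk1, -0.036 to 0.62 for Ccna2 and -0.79 to 0.23 for Ccnb1. After UNC0642 that of Cdk1 ranged from -1.17 to 0.23. Between UNC0642-treated Tau and WT the ranges were -0.25 to 0.26 for Mcm2, -0.098 to 0.15 for Mcm5, -1.12 to 1.07 for Cdk1 and -0.38 to 0.63 for Ccnb1. Top2a, Uhrf1 and Mki67 kept their direction in the first 2 comparisons under every alternative that gave a value. That direction was the condition of the study's list, drawn from these libraries, so this is a description and no test. Uhrf1 and Cdk1 had no value with at least 10 counts in every library. The cause of these changes was not tested. A fit that leaves a group with 1 library takes that library to vary like the other groups.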

Other observations

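With 2 mice per group, a single library decided several calls, and of the 7 genes tested singly and the other pathway genes, Ccnd2 between Tau and WT alone passed adjustment over all genes. Of the markers, Dcx and Cldn5 passed it there (edgeR adjusted p = 0.0363 and 0.0468) and Dcx between UNC0642-treated Tau and WT (0.0450), and without WT replicate 1 these 3 were 0.114, 0.167 and 0.117. Both Tau libraries carried the female pattern and both UNC0642 libraries the male pattern, so treatment cannot be told apart from that difference here. The WT replicates differed in this pattern, so comparisons with WT are also unbalanced in it. The library labelled WT replicate 1 carried Prnp and Mapt at the level of the Tau libraries. Uhrf1, Cdk1 and several spindle genes rest on fewer than 50 counts a library, and an excess of even low counts means that their counting error is not known. Bulk tissue gives no count of dividing cells.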
